A study of Mus musculus with 9 samples.

Results

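The 10 genes described here are the carbonic anhydrases Car2, Car3, Car4, Car7, Car8, Car9, Car11, Car12, Car13 and Car14, of 55401 genes in the count table of 7 libraries. They were chosen by name from the family with group differences in these libraries known, so their values within that table are given as a description, with calls but no p-values. A further 6 genes of the family with a Car symbol in the table (Car1, Car5a, Car5b, Car6, Car10 and Car15) are not members and serve as comparison. All samples were XEN cells, stem cells of the endoderm outside the embryo proper, derived from a cross of Mus musculus molossinus with Mus musculus. RNA-seq reads per gene were counted in wild-type cells named WT_EV (n = 3), in cells labelled with a paternal Xist deletion (DXp, n = 2) and in cells labelled with a homozygous Xist deletion (DXp_DXm, n = 2). These 7 samples are labelled female and share the parental cross. The series design describes the deleted segment as lying upstream of Xist, the RNA that coats the inactive X chromosome. Wild-type clones of the same cell line (WT_clone, n = 2), labelled WT with no sex given, were counted in a separate table, of which 11512 genes were used here. The labels do not spell out EV. The DXp titles begin with D1 and the DXp_DXm titles with D3, and if each names a single cell line, genotype and line cannot be told apart.

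Carbonic anhydrases hydrate carbon dioxide to bicarbonate and a proton, using a zinc ion held by histidines in the active site. Cytosolic members act on gas and acid inside the cell, membrane members face the outside and work with bicarbonate and proton transporters, and a few relatives have lost the zinc site and have no such activity. In extra-embryonic endoderm, an absorptive and secretory tissue, the family belongs to the machinery of ion and acid transport.

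Total counts ranged from 14352719 to 29335803 in the 7 libraries. The 10 listed markers of extra-embryonic endoderm all had counts, except that 1 of them (Col4a1) was at 0 in DXp replicate 1, and the summed level of the list was 21301 to 28861 CPM (counts scaled to a common library size) in WT_EV, 7421 and 17096 in DXp, and 14142 and 11216 in DXp_DXm. Its genes did not move together. Lama1, Col4a1, Gata4 and Foxa2 were lower in both deletions, whereas Pdgfra and Sparc each overlapped WT_EV. Gata6 lay above WT_EV in DXp, at 535 and 629 CPM against 366 to 497, and overlapped it in DXp_DXm. Sox17 overlapped WT_EV in DXp and lay below it in DXp_DXm, at 256 and 246 CPM against 470 to 619. Dab2 was higher, at 523 to 792 CPM for WT_EV against 1125 to 2602 with either deletion. Sox7 was higher too, at 77.0 to 94.6 against 171 to 404 CPM. Summed erythroid markers stayed at or below 1.07 CPM, and summed markers of embryonic stem cells, trophoblast and fibroblasts at or below 4.86 CPM. Summed epithelial markers were 633 to 921 CPM in WT_EV, 56.6 and 95.4 in DXp, and 130 and 222 in DXp_DXm. The WT_EV sum was almost all Krt8 and Krt18, and both were lower in every DXp and DXp_DXm library. Esrp1 instead stood at 27.7 and 63.4 CPM in DXp_DXm, beside at most 0.169 in WT_EV and 0.358 in DXp. Cdh1 (42.5 CPM) and Epcam (29.4 CPM) were highest in DXp_DXm replicate 2. Histone genes and 7SK RNA, which lack a poly(A) tail, summed to 16432 to 30675 CPM in WT_EV and 13.7 to 77.7 CPM in the deletion libraries. Xist itself was counted at 689 to 1561 CPM in WT_EV, 17304 and 15435 in DXp, and 5456 and 8945 in DXp_DXm, so its counts do not check which libraries carry the deletion. The wild-type clones had 102206 and 122140 raw Xist counts, beside 12244 to 26048 in WT_EV, not scaled for depth. Wild-type libraries thus differed in Xist among themselves. Changes also followed the GC content of genes: in DXp against WT_EV the 2453 tested genes of the lowest GC class had a median log2 change of 2.03 and the 3598 of the highest class one of -3.44. Each member is therefore also given from a fit with offsets per library for GC content and length, and what part these library properties have in its change was not tested. Libraries were made with either of 2 kits, which the labels do not assign to samples. If the kits were split between WT_EV and the deletions, kit and genotype cannot be told apart. In bulk samples, fewer cells of a type and less RNA per cell cannot be told apart.

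The summed transcript level of the 16 Car genes differed between the 3 groups by less than the spread between libraries, while its make-up differed. On a scale per gene length and library size (RPKM), the sum was 49.2 ± 5.44 in WT_EV (SD, n = 3), 48.7 ± 3.41 in DXp (n = 2) and 51.0 ± 16.4 in DXp_DXm (n = 2). Membrane members held 80.8 ± 2.69% of that sum in WT_EV, 35.1 ± 11.1% in DXp and 72.6 ± 5.27% in DXp_DXm. Cytosolic members held 10.7 ± 2.61%, 46.9 ± 22.8% and 9.07 ± 2.29%. Relatives without the zinc site held 8.09 ± 4.66%, 16.5 ± 11.7% and 17.1 ± 2.67%. The membrane share of both DXp libraries, 42.9% and 27.2%, lay below that of the other 5 libraries, of which the lowest was 68.9%. These shares and the ranks below come from RPKM without GC and length offsets. Offsets moved the log2 changes in DXp unequally. Car4 went from -3.31 to -1.97, Car8 from 1.37 to 0.02 and Car14 from 0.88 to 2.15. Shares and ranks with offsets were not computed.

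Ordered by RPKM, Car4 was the most abundant Car transcript in all 3 WT_EV and both DXp_DXm libraries and only the sixth in both DXp libraries. Car12 was the second in WT_EV and DXp_DXm. The top place in DXp went to Car12 in replicate 1 (12.9 RPKM) and to Car2 in replicate 2 (19.7 RPKM). Car13 ranked 3 and 2 in DXp replicates 1 and 2. In WT_EV the group means ran from Car4 (24.7 ± 1.98 RPKM) through Car12 (11.99 ± 1.88), Car2 (5.07 ± 1.65), Car8 (3.16 ± 2.84), Car14 (2.83 ± 2.33) and Car11 (0.850 ± 0.305) to Car7 (0.229 ± 0.0797). There the ranges of Car8 and Car14 overlapped each other and that of Car2, whereas Car4 and Car12 did not overlap each other or any other member. Car9, Car13 and Car3 were each below 0.16 RPKM in every WT_EV library.

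**Figure D1:**
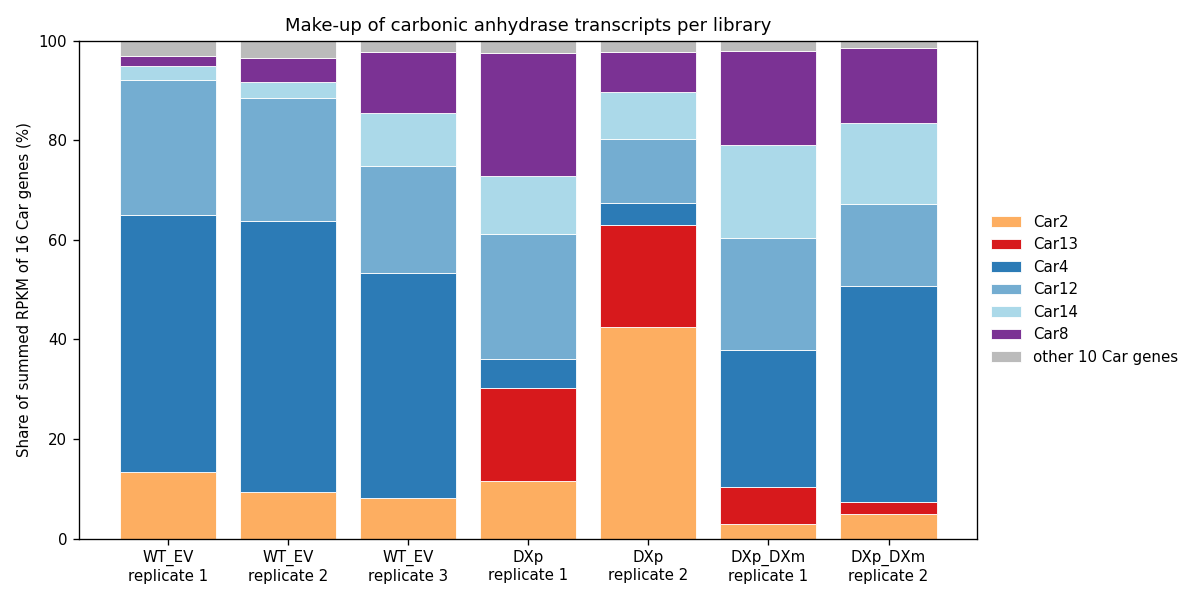
Share of the summed RPKM of 16 Car genes (%, y axis) in each of the 7 libraries (x axis), with the 6 most abundant genes in colour and the other 10 in grey. Car4 takes 50.5 ± 4.78% in WT_EV, 5.07 ± 0.879% in DXp and 35.5 ± 11.2% in DXp_DXm, and Car13 takes 19.5 ± 1.18% in DXp. The RPKM values are without GC and length offsets.

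Among the cytosolic members, Car13 (ENSMUSG00000027555, protein coding, chromosome 3, 14641727 to 14663002, plus strand, GRCm38) was the gene nearly silent in WT_EV and present in every deletion library. It encodes a cytosolic enzyme found in several tissues. Its counts were 1, 0 and 0 in WT_EV replicates 1 to 3, then 430 and 562 in DXp, and 163 and 82 in DXp_DXm. On the CPM scale the DXp libraries stood at 22.0 and 21.7 and the DXp_DXm libraries at 6.75 and 3.22, so the 3 groups did not overlap. The ratio of summed counts per scaled library size was 1269 for DXp against WT_EV (95% counting interval 227 to 50165) and 287 for DXp_DXm (51.1 to 11396), an interval of counting error alone, resting on 1 count. Between the deletions the level in DXp_DXm was 4.38-fold below that in DXp, a log2 change of -2.13 (SE 0.49, interval -3.22 to -1.03). That difference did not pass the adjusted p of 0.05 over all genes in edgeR's quasi-likelihood test, and passed on leaving out WT_EV replicate 3 (-2.13), with DESeq2 (-2.25) and with rarely counted genes kept in (-2.13). Against WT_EV, Car13 was called higher in both deletions under each alternative run, from 9.28 to 11.9 in DXp and from 7.15 to 9.81 in DXp_DXm when single libraries were left out.

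Car2 (ENSMUSG00000027562, chromosome 3, 14886273 to 14900770, plus strand), the fast cytosolic enzyme of red cells, kidney and many epithelia, moved in opposite directions in the 2 deletions without a call in either. Its levels were 16.9, 9.61 and 10.4 CPM in WT_EV, 14.4 and 47.7 CPM in DXp, and 2.69 and 7.62 CPM in DXp_DXm. DXp replicate 2 stood far above all other libraries, DXp replicate 1 lay within the WT_EV range, and both DXp_DXm libraries lay below WT_EV. The log2 change was 1.34 in DXp (SE 0.56, interval 0.08 to 2.60) and -1.25 in DXp_DXm (SE 0.57, interval -2.53 to 0.03). From DXp to DXp_DXm it was -2.59 (SE 0.62, interval -3.98 to -1.20), with no overlap of the libraries, and did not pass. Its call in DXp turned to higher with GC and length offsets (1.82), with DESeq2 (1.45), with RLE size factors (1.45), without the low-count filter (1.34), and without WT_EV replicate 1 (1.62), DXp replicate 1 (2.07), DXp_DXm replicate 1 (1.42) or DXp_DXm replicate 2 (1.35), while without DXp replicate 2 the change was 0.24. In DXp_DXm it turned to lower without DXp_DXm replicate 2 (-2.17) and without the low-count filter (-1.24), and the change between the deletions passed with DESeq2 (-2.65) and without that filter (-2.58).

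The remaining cytosolic members were rare. Car7 (ENSMUSG00000031883, chromosome 8, 104534689 to 104550343, plus strand), known from brain, had 10, 19 and 19 counts in WT_EV, 7 and 4 in DXp, and 7 and 5 in DXp_DXm. Its log2 change was -1.71 in DXp (SE 0.69, interval -3.24 to -0.18) and -1.75 in DXp_DXm (SE 0.68, interval -3.27 to -0.24), both called lower. With GC and length offsets the values were 0.58 and 0.23, neither called, on 4 to 19 counts a library. The call in DXp was lost on leaving out WT_EV replicate 2 (-1.76), WT_EV replicate 3 (-1.46), DXp replicate 1 (-2.28), DXp replicate 2 (-1.19), DXp_DXm replicate 1 (-1.63) or DXp_DXm replicate 2 (-1.70). The call in DXp_DXm was lost without WT_EV replicate 2 (-1.80), WT_EV replicate 3 (-1.50), DXp replicate 1 (-1.68), DXp_DXm replicate 1 (-1.97) or DXp_DXm replicate 2 (-1.49).

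Car3 (ENSMUSG00000027559, chromosome 3, 14863512 to 14872523, plus strand), a low-activity enzyme of muscle and fat, had 1, 0 and 0 counts in WT_EV, 7 and 0 in DXp, and 6 and 5 in DXp_DXm, too few to enter the fit. The ratio of summed counts was 8.95 in DXp (95% counting interval 1.15 to 404) and 12.9 in DXp_DXm (1.88 to 555). These intervals hold counting error alone, without the spread between libraries, and rest on 1 count in WT_EV. All the DXp counts came from replicate 1, and the DXp libraries overlapped those of WT_EV.

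Among the membrane members, Car4 (ENSMUSG00000000805, chromosome 11, 84957786 to 84966044, plus strand) was low in DXp and near wild type in DXp_DXm. It encodes an enzyme tethered to the outer cell surface by a lipid anchor. The levels were 53.0, 46.0 and 46.6 CPM in WT_EV, 5.72 and 4.05 CPM in DXp, and 21.3 and 53.4 CPM in DXp_DXm. DXp lay below every other library, DXp_DXm replicate 2 exceeded all 3 WT_EV libraries, and DXp_DXm replicate 1 lay below them. In DXp the level was 9.95-fold below WT_EV (log2 -3.31, SE 0.38, interval -4.16 to -2.47), and it was called lower also with offsets, at -1.97. In DXp_DXm the change was -0.38 (SE 0.37, interval -1.20 to 0.44), which did not pass, and without DXp_DXm replicate 2 it was -1.17 and called lower. DXp_DXm exceeded DXp by 2.94 (SE 0.41, interval 2.02 to 3.85), the single call among the members between the deletions, where 0.444% of all genes were called. This call was lost with offsets (2.55) and without WT_EV replicate 1 (2.94), WT_EV replicate 2 (2.94), DXp replicate 1 (3.18) or DXp replicate 2 (2.71), at nearly the same size.

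Car12 (ENSMUSG00000032373, chromosome 9, 66713686 to 66766845, plus strand) encodes a transmembrane enzyme of epithelia with its active site outside the cell. It stood at 107, 80.4 and 85.7 CPM in WT_EV, 97.8 and 45.2 CPM in DXp, and 67.7 and 79.0 CPM in DXp_DXm. DXp replicate 1 lay within the WT_EV range, and the DXp_DXm libraries lay just below it. The log2 change was -0.35 in DXp (SE 0.32, interval -1.07 to 0.37) and -0.31 in DXp_DXm (SE 0.32, interval -1.03 to 0.41), neither called. Without DXp replicate 1 the change in DXp was -0.90 and called lower.

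Car14 (ENSMUSG00000038526, chromosome 3, 95897768 to 95904691, minus strand) encodes a transmembrane enzyme related to Car12. Its levels were 3.99, 3.54 and 14.03 CPM in WT_EV, 15.2 and 11.1 CPM in DXp, and 18.7 and 25.8 CPM in DXp_DXm. WT_EV replicate 3 stood apart from the other WT_EV libraries and overlapped DXp, whereas DXp_DXm lay above all WT_EV libraries. The log2 change was 0.88 in DXp (SE 0.56, interval -0.37 to 2.12), not called, and 1.64 in DXp_DXm (SE 0.55, interval 0.40 to 2.87), called higher. With GC and length offsets both were called higher, at 2.15 and 2.51, and without WT_EV replicate 3 the change in DXp was 1.79 and called. The call in DXp_DXm was lost without WT_EV replicate 1 (1.33), WT_EV replicate 2 (1.28) or DXp_DXm replicate 2 (1.40). Car14 overlaps Aph1a on the opposite strand, and the counting's strand setting is not stated in the labels, so reads of the overlap may belong to either gene.

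Car9 (ENSMUSG00000028463, chromosome 4, 43506966 to 43513729, plus strand) encodes the transmembrane enzyme widely used as a marker of low oxygen, and it was almost absent. It had 1, 5 and 6 counts in WT_EV, 8 and 10 in DXp, and 3 and 5 in DXp_DXm, and it did not enter the fit. The ratio of summed counts was 1.92 in DXp against WT_EV (95% counting interval 0.87 to 4.37), 0.782 in DXp_DXm against WT_EV (0.277 to 2.08) and 0.408 in DXp_DXm against DXp (0.153 to 0.985). The counting intervals of both deletions against WT_EV included 1, and all 3 intervals hold counting error alone, without the spread between libraries. Car9 lies across an antisense gene, Gm12454.

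Promoter windows from RefSeq (GRCm38.p6) were at hand for Car4, Car7, Car9, Car11, Car12 and Car14. Those of Car9 and Car14 are shown because both hold the core that hypoxia-inducible factors bind, ACGTG, close to the start, although Car9 was nearly absent and Car14 was not. The core, read on either strand, is in capitals, and appears as CACGT on the printed strand. Each sequence runs 5′ to 3′ and ends at the base before the RefSeq start. The Car9 sequence, chr4:43506996-43507025 on the plus strand, is shown at 30 bases. All of it lies inside the annotated gene, because another transcript starts further upstream, at 43506966.
Car9: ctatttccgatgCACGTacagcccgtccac
Car14: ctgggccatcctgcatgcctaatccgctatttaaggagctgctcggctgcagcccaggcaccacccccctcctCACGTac
The Car14 sequence is chr3:95904686-95904765 on the minus strand, and its last bases lie inside the annotated gene, which begins at 95904691. The match begins 18 bases before the start in Car9 and 7 in Car14. In the 250 bases before the start, 16.57% of 32851 mouse windows hold this core.

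Car4, the member with the call between the deletions, and Car12, its abundant neighbour in rank without a call, are shown for contrast. Neither window of 250 bases holds the hypoxia core or the GATA motifs AGATAA and TGATAA, which 16.6% of all windows hold. Car12 has a GC box, GGGCGG on either strand, in capitals and beginning 35 bases before the start, a motif in 32.74% of windows.
Car4: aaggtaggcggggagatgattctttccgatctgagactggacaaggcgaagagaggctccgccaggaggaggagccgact
Car12: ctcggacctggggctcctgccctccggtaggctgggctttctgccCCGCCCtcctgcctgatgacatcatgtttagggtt
The sequences are chr11:84957674-84957753 and chr9:66713606-66713685, both on the plus strand. A RefSeq start of Car4 differs from each annotated start in the gene models used for the counts. None of the 6 members with a window has a TATA box (TATAAA), which 12.37% of windows hold. A match is a string of letters and not a site.

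Among the members without the zinc site, Car8 (ENSMUSG00000041261, chromosome 4, 8143362 to 8239041, minus strand), which binds the inositol trisphosphate receptor, was variable within groups. It stood at 4.05, 7.88 and 24.6 CPM in WT_EV, 48.5 and 14.5 CPM in DXp, and 28.7 and 36.4 CPM in DXp_DXm. WT_EV replicate 3 lay above DXp replicate 2, and DXp_DXm lay above all WT_EV libraries. The log2 changes, 1.37 in DXp (SE 0.73, interval -0.30 to 3.04) and 1.42 in DXp_DXm (SE 0.73, interval -0.25 to 3.09), were not called. Without WT_EV replicate 3 they were 2.37 and 2.42 and both called higher, as they were with DESeq2 (1.56 and 1.48). With GC and length offsets they were 0.02 and 0.34.

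Car11 (ENSMUSG00000003273, chromosome 7, 45699843 to 45704682, plus strand), the other such relative, was rare in WT_EV and nearly absent in both deletions. It had 35, 47 and 16 counts in WT_EV, 3 and 4 in DXp, and 2 and 3 in DXp_DXm, with no overlap between wild type and deletions. The log2 change was -3.37 in DXp (SE 0.69, interval -4.90 to -1.83) and -3.95 in DXp_DXm (SE 0.74, interval -5.61 to -2.30), both called lower, and these calls held on leaving out any single library. With GC and length offsets the values were 0.33 and -0.42, neither called. Car11 has the highest GC content of the members, 60.4%, and Car13 the lowest, 41.7%.

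**Figure D2:**
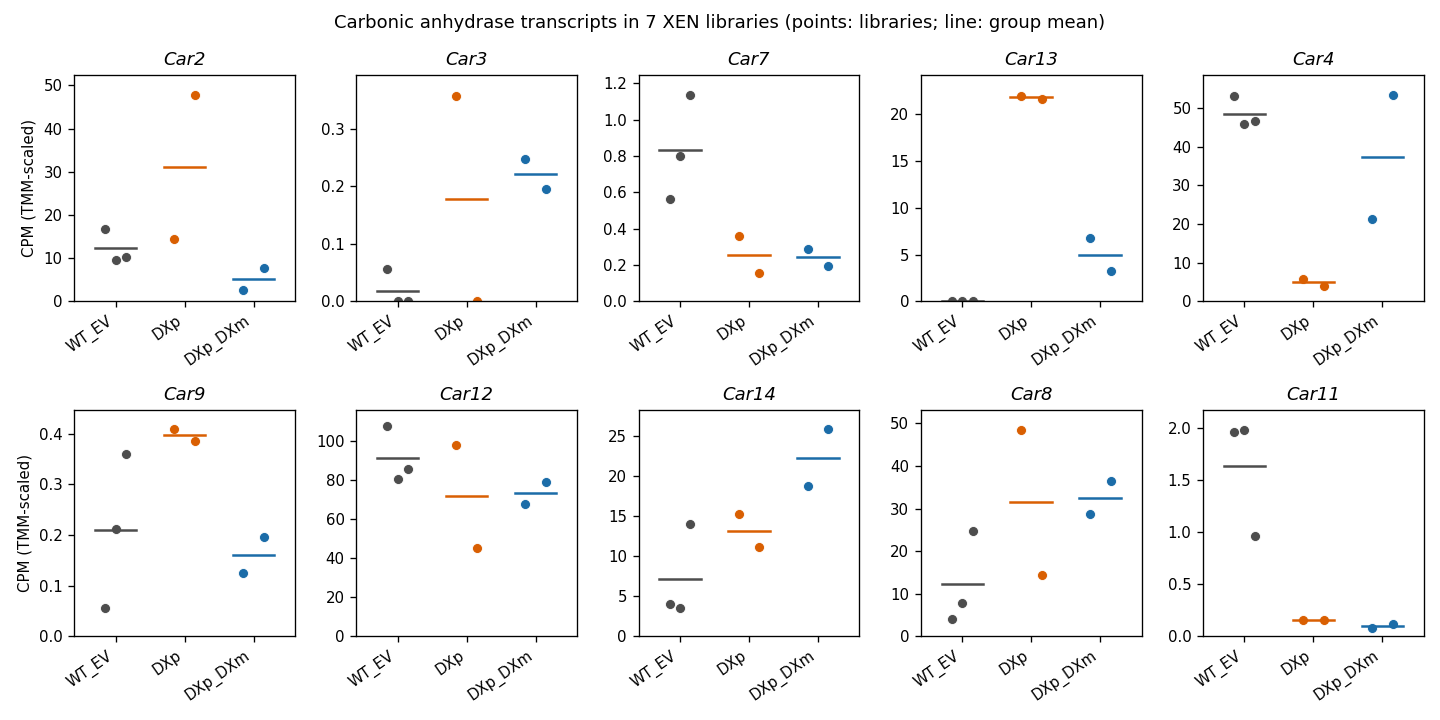
CPM (TMM-scaled, y axes starting at 0, each with its own scale) of the 10 members in WT_EV, DXp and DXp_DXm, 1 point per library and a line at each group mean. Car13 and Car4, and the rare Car7, Car9 and Car11, separate DXp from WT_EV without overlap. WT_EV replicate 3 is the high WT_EV point of Car8 and Car14, and DXp replicate 2 is the high point of Car2 at 47.7 CPM.

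Counted together, 8 of the 10 members passed the filter on low counts. A filter can pass a gene through the group in which it is high, as it did Car13. In DXp against WT_EV, 1 of these 8 was called higher and 3 lower, where over all 15331 genes tested 72.3% were called, 32.2% higher and 40.1% lower. In DXp_DXm against WT_EV, 2 were called higher and 2 lower, against 66.8% of all genes, 30.8% higher and 36% lower. Between the deletions 1 was called higher, against 0.444% of all genes, 0.28% higher and 0.163% lower. The median log2 change of the 8 members was 0.26, -0.35 and -0.00 in the 3 comparisons, and that of all genes -0.35, -0.15 and 0.02. With GC and length offsets the members called higher and lower were 3 and 1 in DXp, where that fit called 51.7% of all genes, 24.9% higher and 26.7% lower. In DXp_DXm the 2 called were higher, against 43.6% of all genes, 21.9% higher and 21.7% lower. Between the deletions edgeR with offsets called 0 of the 8 members (3 had an unadjusted p under 0.05, and DESeq2 without offsets called 3), against 0.235% of all genes, 0.137% higher and 0.098% lower. The 2 comparisons against WT_EV share the same control libraries. Whether the WT_EV samples were grown as separate cultures is not labelled, and the p-values here reflect no more than the differences among the sampled libraries, which may be technical.

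**Figure D3:**
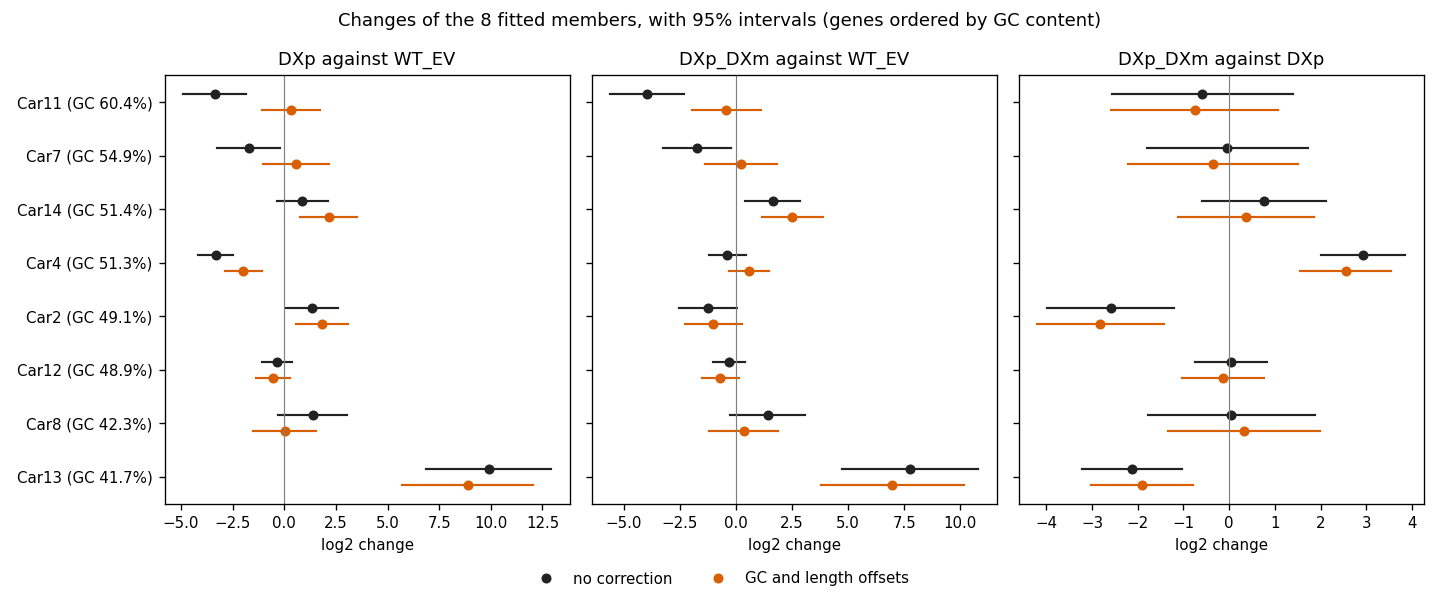
Log2 change (x axes) of the 8 fitted members in the 3 comparisons, ordered by GC content of the gene, with 95% intervals. Black points are from the fit without correction and orange points from the fit with GC and length offsets. The points of Car11 and Car7 move from -3.37 and -1.71 to 0.33 and 0.58 in DXp, those of Car13 stay far to the right at 9.89 and 8.87.

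The wild-type clones give a further pair of wild-type libraries. The WT_EV and deletion libraries on the other side of each comparison were those in view when the members were chosen, so these values too are given as a description, with calls but no p-values. The table of the clones as used here held Car2, Car3, Car13 and Car14 of chromosome 3. CPM was computed there over the genes shared by both tables, so it is not on the scale above. Car13 was present in the clones, at 129 and 8 counts (19.5 and 1.35 shared-gene CPM), against 0.107 ± 0.186 in WT_EV (n = 3), 96.0 ± 0.142 in DXp (n = 2) and 21.3 ± 10.1 in DXp_DXm (n = 2). The clones thus differed widely from each other and both lay above all 3 WT_EV libraries. The ratio of summed counts per scaled library size was 111 for WT_clone against WT_EV (95% counting interval 19.6 to 4417), again resting on 1 count in WT_EV. Car13 was called higher there, in a comparison in which 30.6% of 3302 genes were called, with a fitted log2 difference of 6.39, or 3.47 without WT_clone replicate 1. DXp exceeded WT_clone by 3.20 (SE 0.91, interval 1.19 to 5.21), called higher where 40.2% of genes were called. That call was lost with offsets (2.24) and without DXp replicate 1 (3.21) or DXp replicate 2 (3.19), and the size was 6.13 without WT_clone replicate 1. DXp_DXm and WT_clone overlapped, with a change of 1.03 (SE 0.91, interval -0.997 to 3.05) that was not called, where 25% of genes were called. Without WT_clone replicate 1 that change was 4.00 and called higher, so its size depended on that clone.

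Car2 in the clones, at 43.0 and 88.6 shared-gene CPM, overlapped the WT_EV levels of 54.8 to 96.6. The change from WT_EV was -0.10 (SE 0.59, interval -1.41 to 1.22). DXp differed from WT_clone by 1.06 (interval -0.38 to 2.49), not called, its libraries at 62.8 and 211 overlapping the clones. DXp_DXm, at 11.3 and 33.6, lay below both clones, with a change of -1.55 (interval -3.00 to -0.10) that was not called, except without the low-count filter (-1.56).

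Car14 stood at 34.4 and 25.7 shared-gene CPM in the clones, within the WT_EV range of 20.2 to 80.7 and below both deletions. On this scale DXp_DXm, at 78.7 and 114, overlapped WT_EV through WT_EV replicate 3, unlike on the CPM scale above. The change from WT_EV was -0.45 (interval -1.69 to 0.79). DXp exceeded the clones by 0.94 (interval -0.41 to 2.29) and DXp_DXm by 1.68 (interval 0.33 to 3.02), neither called. The latter was called with DESeq2 (1.75), with edgeR without the low-count filter (1.66) and without WT_EV replicate 3 (1.68). Car3 had 2 and 1 counts in the clones and was not tested.

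**Figure D4:**
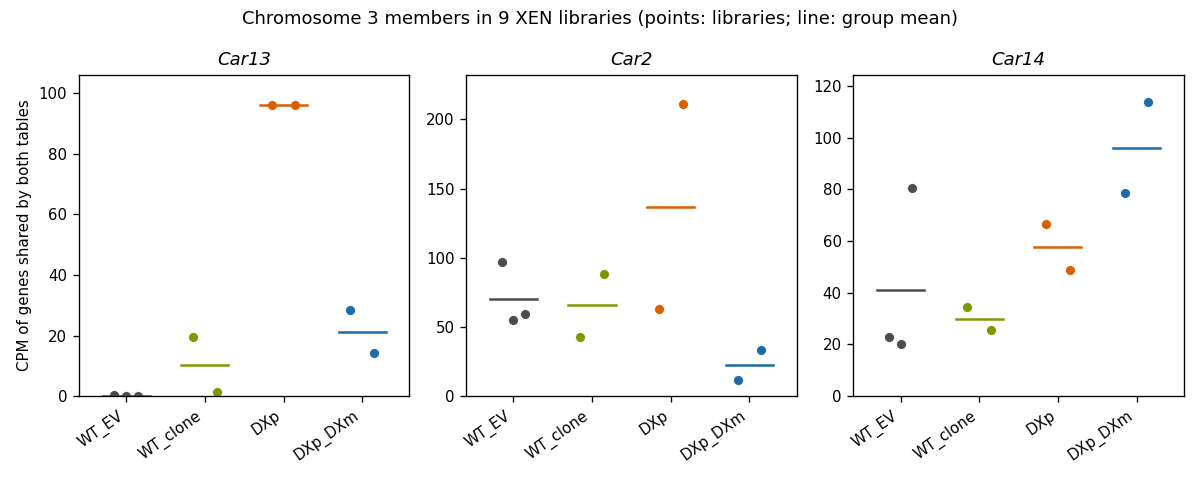
CPM over the genes shared by both tables (y axes starting at 0) of Car13, Car2 and Car14 in WT_EV, WT_clone, DXp and DXp_DXm, 1 point per library and a line at each group mean. The WT_clone points of Car13 are at 19.5 and 1.35, above WT_EV and below DXp, and those of Car2 and Car14 fall among or near the WT_EV points.

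The family genes that are not members were mostly silent. Car1, Car6 and Car10 had no count in the 7 libraries, which allows up to 3 counts, or 0.0196 CPM over all of them, for counting error only. Car5a had 1 count, and Car15, a lipid-anchored enzyme, had 9 counts in WT_EV, 3 in DXp and 0 in DXp_DXm. Car5b, an X-linked gene for a mitochondrial enzyme, stood at 1.02 ± 0.107 CPM in WT_EV (n = 3), 4.81 ± 0.421 in DXp (n = 2) and 3.77 ± 0.227 in DXp_DXm (n = 2), the groups not overlapping. In edgeR's quasi-likelihood test it rose by a log2 change of 2.23 in DXp (SE 0.43, adjusted p 9.48e-04) and 1.87 in DXp_DXm (SE 0.43, adjusted p 0.00308). With offsets it did not pass, at 0.72 (adjusted p 0.157) and 0.61 (adjusted p 0.245). Against the clones the change in DXp was 1.51 (edgeR adjusted p 0.0497), or 0.85 with offsets (adjusted p 0.292), and that in DXp_DXm was 1.13, which did not pass (edgeR adjusted p 0.158). Ptprg, a receptor phosphatase with an outer domain shaped like a carbonic anhydrase, rose from 75.5 ± 13.7 CPM in WT_EV to 365 ± 118 in DXp, a log2 change of 2.27 (edgeR adjusted p 5.71e-05), or 1.01 with offsets (adjusted p 0.0141). It rose to 253 ± 63.3 in DXp_DXm, by 1.74 (edgeR adjusted p 3.92e-04), which did not pass with offsets (0.64, adjusted p 0.0940). Ptprz1, its close relative, had 1, 7 and 4 counts in the 3 groups.

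Among genes for the transport partners of these enzymes, more were called lower than higher in both deletions, but not in every list with GC and length offsets. Of 16 listed exchangers and cotransporters of bicarbonate and chloride, 9 passed the filter. In DXp, 2 of them rose, 5 fell and 2 did not pass, and in DXp_DXm 2 rose, 6 fell and 1 did not pass, with median log2 changes of -3.27 and -2.07. Over all genes 40.1% were called lower in DXp and 36% in DXp_DXm, with medians of -0.35 and -0.15. With offsets 2 rose and 3 fell in DXp, and 1 rose and 3 fell in DXp_DXm, with medians of -1.11 and -0.55, where that fit called 26.7% and 21.7% of all genes lower. Slc4a7, a sodium-bicarbonate cotransporter, rose from 88.9 ± 5.72 CPM in WT_EV to 498 ± 27.7 in DXp (log2 2.48, edgeR adjusted p 3.49e-05) and 254 ± 119 in DXp_DXm (1.51, edgeR adjusted p 9.90e-04), and passed in neither with offsets (0.38, adjusted p 0.233, and -0.12, adjusted p 0.740). Slc4a2, a chloride-bicarbonate exchanger, fell from 119 ± 7.23 CPM to 9.86 ± 2.54 in DXp (-3.59, edgeR adjusted p 5.40e-06) and 13.7 ± 0.644 in DXp_DXm (-3.11, edgeR adjusted p 1.40e-05). With offsets it still fell in DXp, at -0.98 (adjusted p 0.0177), but missed the threshold in DXp_DXm, at -0.55 (adjusted p 0.139).

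Of 13 listed genes for proton and lactate transport, 7 passed the filter. In DXp 1 rose and 5 fell, and in DXp_DXm 2 rose and 5 fell, with median log2 changes of -2.30 and -1.74, beside the same all-gene shares of 40.1% and 36% lower. With offsets 2 rose and 2 fell in DXp, and 2 rose and 1 fell in DXp_DXm, with medians of -0.71 and -0.27. That fit called 24.9% of all genes higher and 26.7% lower in DXp, and 21.9% and 21.7% in DXp_DXm. Bsg, which encodes a partner of lactate transporters and is named here after its values were seen, turned from called lower (-2.60 in DXp and -1.02 in DXp_DXm) to called higher with offsets (0.75, edgeR adjusted p 0.0379, and 2.05, edgeR adjusted p 5.17e-04). Slc16a3, a lactate exporter, fell in both and had log2 changes of -4.26 in DXp (edgeR adjusted p 5.43e-06) and -3.95 in DXp_DXm (edgeR adjusted p 1.13e-05). With offsets these were -1.73 (adjusted p 0.00203) and -1.60 (adjusted p 0.00372).

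The genes of oxygen sensing and hypoxia, the list to which Car9 and Car12 are tied as known targets, held more genes called higher than lower in both deletions. All 19 passed the filter. In DXp 13 rose, 4 fell and 2 did not pass, and in DXp_DXm 11 rose, 4 fell and 4 did not pass, with median log2 changes of 1.64 and 1.55, where 32.2% and 30.8% of all genes were called higher. With offsets 12 rose and 3 fell in DXp, and 11 rose in DXp_DXm, where that fit called 24.9% and 21.9% of all genes higher. Hif1a, the oxygen-regulated factor, rose from 217 ± 11.1 CPM in WT_EV to 976 ± 282 in DXp (log2 2.17, edgeR adjusted p 2.97e-05) and 538 ± 78.1 in DXp_DXm (1.31, edgeR adjusted p 9.04e-04), and passed in neither with offsets (0.38, adjusted p 0.232, and -0.14, adjusted p 0.692). Epas1, its relative, rose by 1.02 in DXp (edgeR adjusted p 0.0246) and stood at 0.62 in DXp_DXm (edgeR adjusted p 0.145). With offsets Epas1 rose in both, by 2.13 (adjusted p 9.99e-04) and 1.51 (adjusted p 0.00697). Vhl, which marks these factors for breakdown, rose by 2.15 in DXp (edgeR adjusted p 4.32e-05) and 1.55 in DXp_DXm (edgeR adjusted p 4.42e-04), and with offsets by 2.84 and 1.92.

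Pdk1, a hypoxia-induced kinase that holds pyruvate back from mitochondria, rose by 2.26 in DXp (edgeR adjusted p 2.90e-04). In DXp_DXm it rose by 3.03 (edgeR adjusted p 6.74e-05). With offsets the rises were 1.31 in DXp (edgeR adjusted p 0.0159) and 2.12 in DXp_DXm (edgeR adjusted p 0.00212). Egln2, one of the oxygen-sensing prolyl hydroxylases, fell in both, with log2 changes of -5.47 in DXp (edgeR adjusted p 6.59e-06) and -4.36 in DXp_DXm (edgeR adjusted p 2.19e-05). With offsets the DXp value was -1.75 (adjusted p 0.00377), and the DXp_DXm value missed the threshold at -0.67 (adjusted p 0.136). The other 3 genes of the list that fell in both, named after their values were seen, were Ldha, which makes lactate, the hexokinase Hk2 and the glucose transporter Slc2a1. Their log2 changes in DXp and DXp_DXm were -2.68 and -1.49 for Ldha, -1.58 and -1.06 for Hk2, and -2.48 and -1.73 for Slc2a1. With offsets Ldha (-1.44) and Hk2 (-0.69) were still called lower in DXp, and none of these 3 was called in DXp_DXm. Ero1l, Bnip3 and Egln3, also named after their values were seen, were among the genes that rose in both. Their log2 changes in DXp and DXp_DXm were 4.16 and 3.62 for Ero1l, 4.05 and 4.17 for Bnip3, and 3.45 and 3.13 for Egln3. With offsets each was still called higher in both. Beside these, Car9 stayed at 10 counts or fewer in every library and Car12 had no call. Of the 35 tested genes of the 3 lists, 0 were called between the deletions by edgeR, which called 0.444% of all genes there. Of these 35, 6 had an unadjusted p under 0.05 and DESeq2 called 3. The DESeq2 total over all genes is given below.

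**Figure D5:**
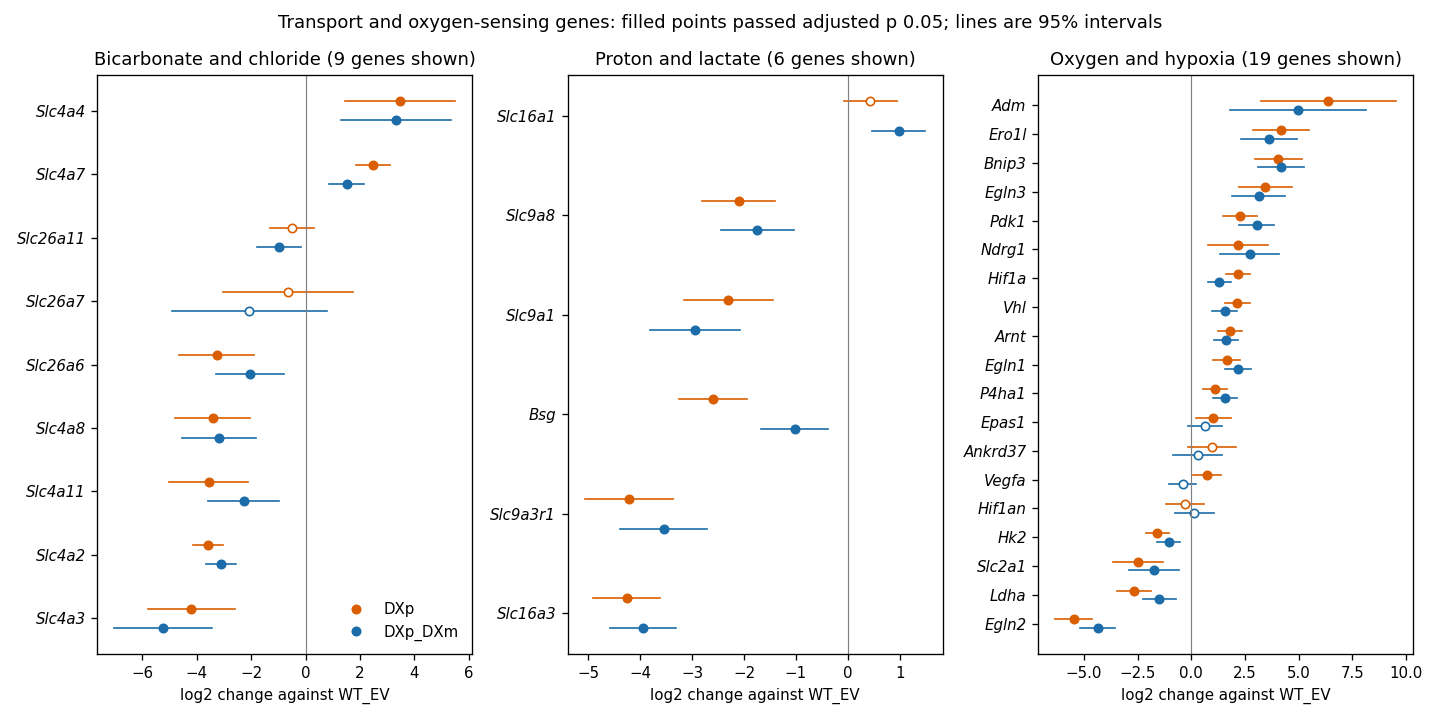
Log2 change against WT_EV (x axes) in DXp (orange) and DXp_DXm (blue) of tested genes of bicarbonate and chloride transport, of proton and lactate transport, and of oxygen sensing and hypoxia, with 95% intervals. Filled points passed the adjusted p of 0.05; most points of the transport panels lie left of 0 and most of the oxygen panel right of 0.

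Around Car13, 7 genes within 500 kb of the stretch from Car13 to Car2 had 10 or more counts, 3 of them members. Lrrcc1, a centrosome gene, rose from 9.80 ± 2.51 CPM in WT_EV to 158 ± 75.1 in DXp and 79.5 ± 31.9 in DXp_DXm (edgeR adjusted p 1.26e-05 and 8.16e-05). E2f5, a repressor of the cell-cycle E2F family, rose from 14.6 ± 3.94 to 86.5 ± 3.86 and 54.1 ± 9.76 CPM (edgeR adjusted p 2.71e-05 and 2.39e-04). The uncharacterised 1810022K09Rik rose from 40.1 ± 5.59 to 111 ± 44.0 and 109 ± 5.28 CPM (edgeR adjusted p 8.84e-04 and 0.00114). The pseudogene Gm16399, at or below 1.16 CPM in the group means, did not pass (edgeR adjusted p 0.252 and 0.0967). Thus all 3 protein-coding neighbours with 10 or more counts that are not members rose with Car13. Over all genes, 32.2% were called higher in DXp and 30.8% in DXp_DXm. The other members of the stretch did not follow in the same way. Car2 was called in neither deletion (log2 1.34 and -1.25), and Car3 had too few counts to test. Car1, in the same stretch, had no count. What part GC content has in these rises was not tested.

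The genes whose log2 CPM followed Car13 most closely over the 7 libraries were Zfp958 (Pearson r 0.997), Nufip2 (0.9965) and Rnf14 (0.996). Zfp958 stood at 8.94 to 9.15 CPM in WT_EV, 70.5 and 74.03 in DXp, and 42.7 and 36.2 in DXp_DXm, in the same order of groups as Car13. An r above 0.95 was reached by 1431 of 11934 protein-coding genes, and the 7 libraries share their grouping and the differences in GC content given above.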

How the data were processed

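The members and gene lists were chosen with earlier results of these data known. RNA-seq of XEN cells was quantified by the authors as raw counts of reads per gene, deposited in a table of 7 libraries and one of 2 wild-type clones, of which 11512 genes of chromosomes 1, 2, X and part of 3 were used here. Per the submitters' processing notes, the tools were FastQC, STAR 2.7.9a and featureCounts 2.0.1 on GRCm38 (mm10). The annotation release, the strand setting and the handling of multimapped reads are not stated there. Total RNA went into libraries made with either of 2 kits, per the labels' protocols, which do not say which library had which kit. The length column of the deposited tables gave RPKM.

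Counts were tested with edgeR 4.0.16 (R 4.3.3), the quasi-likelihood test after filterByExpr and TMM, with Benjamini-Hochberg adjustment over 15331 genes and a threshold of 0.05. A second fit joined the shared genes of both tables (9 libraries, 3302 genes). Intervals are 95%, from the quasi-likelihood SE. The biological coefficient of variation was 33.7% (7 libraries) and 39.3% (9). Scripts were tested on simulated data. Alternatives were DESeq2 1.42.0, RLE size factors, no low-count filter, spline offsets for GC content and length, the replicate number as a block, histone genes and Rn7sk left out, and each library left out. Named genes were all members, other family genes, the member of each list with the lowest p in each direction (1 of these is not reported here), Hif1a, Epas1 and Vhl, neighbours within 500 kb with at least 10 counts, and the 3 protein-coding genes with the highest r with Car13. Promoter windows came from RefSeq by symbol (6 of 10 members matched).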

Additional observations from a re-analysis of the deposited data

Results flagged for a closer look

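Car4 differed between the deletions in the direct comparison. It stood at 21.3 and 53.4 CPM in DXp_DXm and at 5.72 and 4.05 CPM in DXp, a log2 change of 2.94 for DXp_DXm against DXp, the single member called there. As Car4 was chosen with these libraries in view, the value is a description.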

How the results depend on the processing

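With GC and length offsets, Car11 in DXp (0.33) and Car7 in DXp (0.58) and DXp_DXm (0.23) turned from lower to above 0, uncalled. The replicate block with GC and length offsets gave 0.14, 0.92 and 0.59 for these. Offsets called 6673 genes in DXp_DXm against WT_EV (main 10242), 36 between the deletions (68), 520 in DXp against WT_clone and 229 in DXp_DXm against WT_clone. Members called with offsets were 2 in DXp_DXm against WT_EV, and 0 between the deletions (3 at unadjusted p under 0.05; DESeq2 called 3) and 0 in DXp against WT_clone (2 unadjusted; DESeq2 called 1). Transport and hypoxia genes called in DXp_DXm fell from 30 to 18 with offsets and 17 with offsets and block. The block with offsets called 7188 genes in DXp and 5852 in DXp_DXm, and 2 and 0 members in DXp_DXm against WT_EV and between the deletions (3 unadjusted). Between the deletions DESeq2 called 1167 genes, 3 members and 3 transport and hypoxia genes, and edgeR without the low-count filter 1436, 3 and 5. In DXp_DXm against WT_clone, members called were 0 in the main fit (2 unadjusted), 1 with DESeq2, 2 without the filter and 1 with the replicate block. RLE size factors moved the median of all genes in DXp from -0.35 to -0.20 and turned no member's direction against WT_EV. Between the deletions they turned the uncalled changes of Car8 (0.05 to -0.09) and Car12 (0.04 to -0.09).

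Libraries with the same replicate number share only that number in the labels. Same-number correlations of deviations from the group mean ran from -0.20 to 0.06. With 2 libraries in each deletion these deviations mirror each other, so exchanging the numbers flips the sign, to 0.20 between DXp and DXp_DXm. These values therefore cannot decide whether the numbers mark a pairing. The replicate block alone called 10638, 9666 and 92 genes in the 3 comparisons (main 11079, 10242 and 68). It called Car2 lower in DXp_DXm (-1.65), Car8 higher in both deletions (2.33 and 2.43) and Car14 higher in DXp (1.80) and in DXp_DXm against WT_clone (1.70), and lost Car7 in both deletions (-1.49 and -1.52). The DXp titles carry 2 numbers that disagree, and the rep number was used. With the DXp numbers exchanged, which follows the other number and was chosen after seeing the data, the block called 1570 genes between the deletions, 2 members and 4 transport and hypoxia genes.

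Leaving out single libraries gave 2 to 480 genes and 0 to 2 members between the deletions, with 0 or 1 transport and hypoxia genes, and 2 to 4 members in DXp_DXm against WT_EV. Against WT_clone it gave 692 to 1344 genes and 0 to 1 members in DXp, 415 to 949 genes and 0 to 1 members in DXp_DXm, and 551 to 1057 genes in WT_EV. With an arm of 1 library left, that library is assumed to vary like the others. The cause of these shifts was not tested. Depth limits Car3, Car7, Car9 and Car11, at 47 counts or fewer in each library.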
